A study of Mus musculus with 6 samples.

Results

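Nuclear RNA from the 9 genes that encode the elongation kinase P-TEFb, its 7SK inhibitory complex and the core of the super elongation complex was followed through a washout of 4-thiouridine (4sU). The genes were Cdk9, Ccnt1, Ccnt2, Hexim1, Larp7, Mepce, Ell, Ell2 and Aff4. They were taken by symbol from the deposited table, and all 9 were found among its 23281 genes, each once. The cells were a female line of mouse embryonic stem cells, a cross of 129S and Cast, named BglHalo_Xist in the sample titles. All 6 cultures carried the same modified Xist locus, which had a Bgl stem-loop in the 3' end of Xist. These cultures had a TetOn promoter in place of the endogenous one on the 129S allele. All received 1 µg/ml doxycycline for 17.5 to 20 h in all, with 500 µM 4sU present for 4 h. The culture of 0 min was collected without a washout, and the others spent 30, 60, 90, 120 or 150 min in medium with 50 mM uridine and doxycycline. Time in doxycycline is given only as the same range for all 6 cultures. It may rise with washout time, and its effect cannot be told apart from that of washout time. There was 1 nuclear RNA library per time and no replicate. A p-value therefore reflects how far libraries scatter about fitted lines and says nothing of the spread between repeated cultures.

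Many genes transcribed by RNA polymerase II carry a polymerase that pauses soon after initiation. P-TEFb, made of the kinase CDK9 and a T-type cyclin, releases it by phosphorylating the polymerase and the pausing factors NELF and DSIF. Much of the cell's P-TEFb is held inactive by HEXIM proteins on the 7SK small nuclear RNA, which LARP7 and MEPCE stabilise, and the super elongation complex, built on AFF scaffolds with ELL proteins, brings active P-TEFb to genes.

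In SLAM-seq, 4sU in the RNA is alkylated and is then read as C in place of T, a T>C conversion. The deposited labelled share is the posterior mean of the fraction of a gene's reads that is labelled. The decay rate given here is minus the slope of the natural log of that share on time in hours, and the half-life is the natural log of 2 divided by the rate. As the RNA was nuclear, loss of label by decay and by export cannot be told apart. A gene was said to fall when limma gave the slope a Benjamini-Hochberg adjusted p under 0.05. The adjustment was over the 11462 genes whose mean reached 100 reads and whose share was above 0 in every library. The limma SE and p draw on a variance shared in part over all these genes, not on a gene's own 6 libraries alone.

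Libraries held 18558073 to 28535162 reads. Summed over genes, conversions at covered T positions (the T>C rate) came to 4.05, 2.69, 4.11, 2.57, 1.55 and 1.17% in time order, so the 60 min library stood above its neighbours. All 10 embryonic stem cell markers had reads in every library, with a summed level of 5204 to 6069 TPM (reads scaled by gene length and by library). The 15 fibroblast feeder markers summed to 316 to 475 TPM, and 14 of them had reads in every library, while Lum was at 0 in the 150 min library. The part of feeder RNA in the results was not tested, and in bulk RNA fewer cells of a type and less RNA per cell cannot be told apart.

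The labelled share of 7 of the 9 genes fell during the washout, and none rose, where 52.3% of all genes tested fell and 1.19% rose. The median decay rate of the 9 genes was 0.607 per h, beside 0.247 per h over all genes tested. Mepce, Hexim1, Ccnt1 and Ccnt2 lost label fastest, Cdk9 and Ell followed, and Aff4 lay near the median gene. Larp7 and Ell2 showed no called decline. Posterior weights were also used, set for each gene in each library as the squared posterior mean over the posterior variance. With these weights 4 of the 9 genes fell (Mepce, Hexim1, Ccnt1 and Ccnt2), as did 2950 of all genes tested. The calls of Cdk9, Ell and Aff4 were lost. On labelled abundance, the share times the scaled reads, 6 of the 9 genes fell, as did 5440 of all genes tested, and the call of Aff4 was lost.

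**Figure D1:**
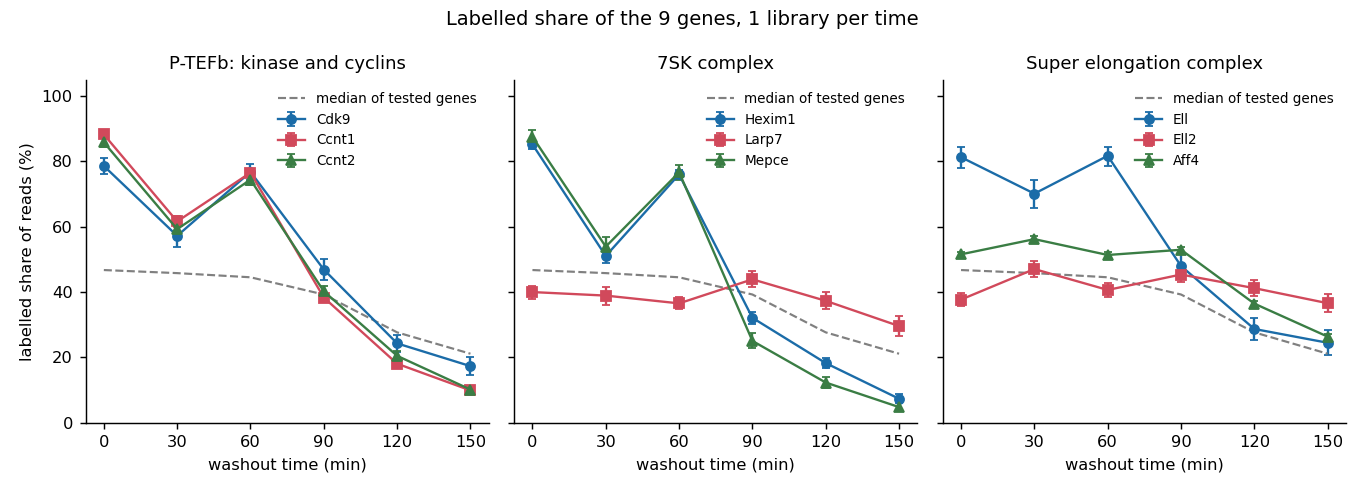
Labelled share of reads (%) against washout time (min) for the 9 genes, grouped by complex, 1 library per time; bars are the authors' 5% to 95% posterior quantiles within a library, and the dashed line is the median of the 11462 genes tested. Mepce, Hexim1, Ccnt1 and Ccnt2 start at 85.2 to 88.2% and end at 4.80 to 10.2%, whereas Larp7 and Ell2 stay between 29.6 and 47.1%.

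The kinase and its cyclins came first by role. Cdk9 encodes the catalytic subunit (ENSMUSG00000009555; chromosome 2, 32705784 to 32713076 in mm10, minus strand, 7 exons). The labelled share of Cdk9 was 78.6, 57.2, 76.8, 46.9, 24.3 and 17.3% in time order. The 0 and 60 min libraries were high and close to each other, and the 3 latest libraries lay below all earlier ones. The decay rate of Cdk9 was 0.607 ± 0.110 per h (SE, 6 libraries), which gives a half-life of 68.5 min with a range of 58.0 to 83.7 min when the rate is moved by 1 SE (limma adjusted p = 0.000282). With posterior weights the rate of Cdk9 was 0.318 per h and the call was lost (limma adjusted p = 0.0688).

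Ccnt1 and Ccnt2 encode the alternative cyclins, T1 and T2, that bind CDK9. Ccnt1 (ENSMUSG00000011960; chromosome 15, 98538689 to 98570923, minus strand) had a labelled share of 88.2, 61.6, 76.6, 38.3, 18.1 and 9.91% in time order. Ccnt2 (ENSMUSG00000026349; chromosome 1, 127774164 to 127808061, plus strand) had 85.8, 59.3, 74.4, 40.3, 20.5 and 10.2%. The cyclins followed each other within a few percentage points in every library. Their half-lives were 47.6 min for Ccnt1 (1 SE range 41.9 to 54.9; limma adjusted p = 5.17e-05) and 50.3 min for Ccnt2 (rate 0.827 ± 0.118 per h; limma adjusted p = 6.2e-05). Ccnt1 lost label faster than 95.6% of the genes tested and Ccnt2 faster than 94.3%. With posterior weights the rates of Ccnt1 and Ccnt2 were 0.444 and 0.461 per h, beside 0.874 and 0.827 per h without weights, and both still passed (limma adjusted p = 0.0273 and 0.0222).

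Among the proteins of the 7SK complex, the inhibitor gene and the capping enzyme gene lost label quickly, and the RNA chaperone gene had no called decline. Hexim1 encodes the protein that blocks CDK9 when bound to 7SK (ENSMUSG00000048878; chromosome 11, 103116231 to 103119725, plus strand, a single exon). Hexim1 had a labelled share of 85.2, 51.1, 76.0, 32.1, 18.3 and 7.36% in time order, an 11.6-fold lower share at 150 than at 0 min. The half-life of Hexim1 was 45.0 min (1 SE range 39.4 to 52.3; limma adjusted p = 5.88e-05). The rate was 0.925 per h, and 0.409 per h with posterior weights (limma adjusted p = 0.0417).

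Mepce encodes the methyltransferase that caps 7SK RNA and stays bound to it (ENSMUSG00000029726; chromosome 5, 137781906 to 137787655, minus strand, 4 exons). Labelled reads of Mepce made up 87.6, 53.9, 76.7, 25.1, 12.3 and 4.80% in time order, and in the last library the posterior 5% to 95% range was 3.46 to 6.32%. That was the lowest share of any of the 9 genes in any library. The decay rate of Mepce was 1.15 ± 0.137 per h (SE), or 36.3 min (1 SE range 32.4 to 41.2; limma adjusted p = 5.12e-05), and Mepce ranked 65 from the fastest of 11462 genes. With posterior weights the rate of Mepce was 0.449 per h (limma adjusted p = 0.0378), below the weighted rate of Ccnt2, so that Mepce was no longer the fastest of the 9 genes.

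Larp7 encodes the La-related protein that holds the 3' end of 7SK (ENSMUSG00000027968; chromosome 3, 127536714 to 127553349, minus strand, 13 exons). Labelled reads of Larp7 made up 40.0, 38.9, 36.6, 43.9, 37.3 and 29.6% in time order, with no steady course. The highest value was that of 90 min and the lowest that of 150 min. The decay rate of Larp7 was 0.0827 ± 0.0899 per h (SE) and did not pass (limma adjusted p = 0.469). A rate 1 SE above the estimate gives a half-life of 241 min. The Larp7 locus holds Mir302a, Mir302b, Mir302c, Mir302d and Mir367 on the opposite strand, and with strand use not given in the sources used here, reads of that transcript and of Larp7 cannot be told apart.

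Among the genes for ELL proteins, Ell lost label and Ell2 did not pass the test, nor did Ell3, a paralog outside the 9 genes that is named here after its value was seen (-0.0493 ± 0.113 per h, SE; limma adjusted p = 0.745). Ell (ENSMUSG00000070002; chromosome 8, 70539457 to 70592858, plus strand) encodes an elongation factor that suppresses transient pausing. Ell had a labelled share of 81.3, 70.1, 81.7, 48.0, 28.7 and 24.5% in time order, again with 0 and 60 min alike. Ell had the fewest reads of the 9 genes, 569 to 808 per library, and the widest posterior ranges, 20.7 to 28.5% at 150 min. Its half-life was 79.0 min (1 SE range 66.3 to 97.8; limma adjusted p = 0.000442). With posterior weights the rate of Ell was 0.321 per h, against 0.526 per h without, and the call was lost (limma adjusted p = 0.0616).

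Ell2, its paralog, encodes the ELL protein known for its role in immunoglobulin processing in plasma cells (ENSMUSG00000001542; chromosome 13, 75706757 to 75772364, plus strand). The labelled share of Ell2 was 37.7, 47.1, 40.7, 45.4, 41.2 and 36.6% in time order. The first and last libraries were the lowest, and the ratio of 150 to 0 min was 0.971. The decay rate was 0.0250 ± 0.0891 per h (SE; limma adjusted p = 0.837), and 1 SE above it gives a half-life of 365 min. Ell2 overlaps 1700037F03Rik on the opposite strand and Gm48302 and the snoRNA Gm23127 on its own strand. Among the other genes, Ccnt1 overlaps the antisense gene 9330020H09Rik, Cdk9 holds Mir2861 and Mir3960 and Aff4 holds Gm25930 and Mir6920 on their own strand, while Ccnt2, Hexim1, Mepce and Ell overlap no annotated gene.

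Aff4 encodes the scaffold that joins P-TEFb to the ELL proteins (ENSMUSG00000049470; chromosome 11, 53350833 to 53421830, plus strand, 21 exons). Its labelled share was 51.6, 56.2, 51.4, 53.0, 36.5 and 26.4% in time order, flat to 90 min and lower in the 2 latest libraries. Aff4 had the most reads of the 9 genes, 7220 to 12040 per library, and its posterior ranges were narrow, 25.4 to 27.3% at 150 min. The decay rate of Aff4 was 0.264 ± 0.0962 per h (SE), or 158 min (1 SE range 115 to 248; limma adjusted p = 0.0297). This call was lost without the 30, 120 or 150 min library (limma adjusted p = 0.0836, 0.0808 and 0.389) and without both the 30 and 60 min libraries (0.0737). It was also lost on labelled abundance, the share times the scaled reads (0.328), with posterior weights (0.180) and with a minimum of 10 reads (0.0521).

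**Figure D2:**
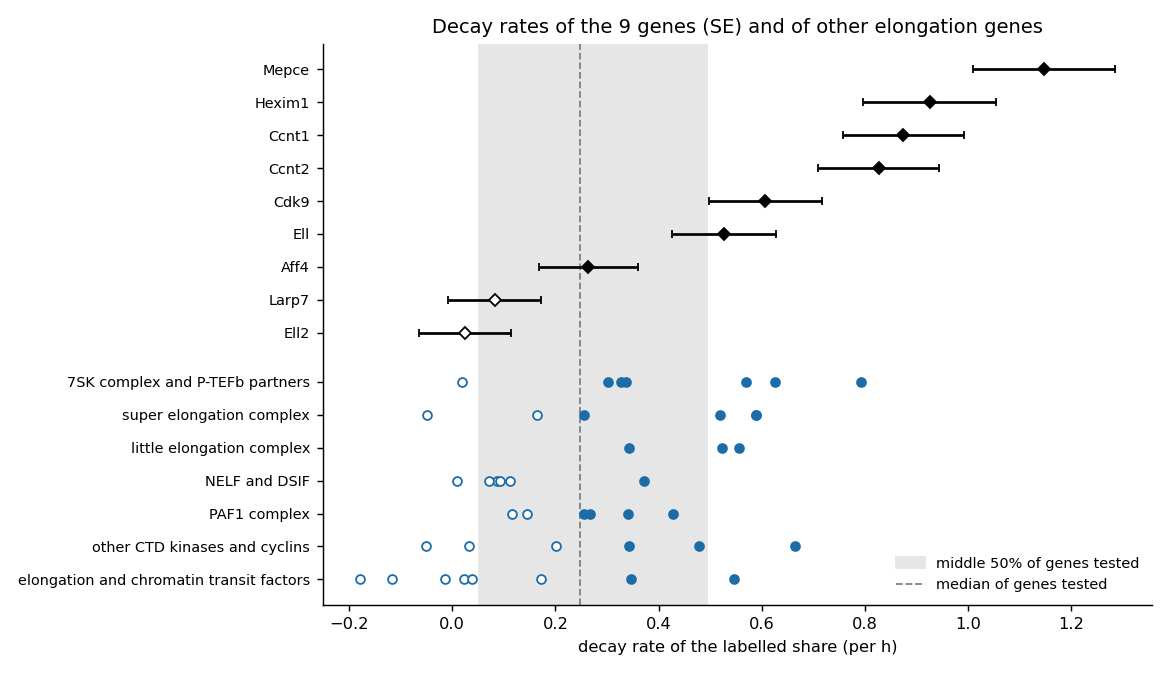
Decay rate of the labelled share (per h) for the 9 genes (diamonds, bars are 1 SE from limma over 6 libraries) and for 42 other elongation genes by group (circles); filled symbols passed the test, the grey band holds the middle 50% of all genes tested and the dashed line their median. The rates of the 9 genes run from 0.0250 per h for Ell2 to 1.15 per h for Mepce.

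Without weights, the order of decay rates was Mepce, Hexim1, Ccnt1, Ccnt2, Cdk9, Ell, Aff4, Larp7 and Ell2. Differences between neighbours in that order were taken within each library, which removes what a library does to both genes alike. Mepce was faster than Hexim1 by 0.221 ± 0.0407 per h (SE), Ccnt2 than Cdk9 by 0.220 ± 0.0467, Ell than Aff4 by 0.262 ± 0.0940 and Aff4 than Larp7 by 0.181 ± 0.0537. The other neighbours lay closer to their error, with Hexim1 above Ccnt1 by 0.0507 ± 0.0610 per h, Ccnt1 above Ccnt2 by 0.0478 ± 0.0239, Cdk9 above Ell by 0.0805 ± 0.0533 and Larp7 above Ell2 by 0.0577 ± 0.0452. These neighbours were set by the rates themselves, so the differences are a description.

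The difference itself was tested for 4 pairs chosen by role, with a two-sided exact permutation test over the 720 orderings of the times, whose smallest possible p is 0.00278. Ell lost label faster than Ell2 by 0.501 ± 0.109 per h (SE; exact permutation p = 0.0139, adjusted p = 0.0259 over the 4 pairs). Mepce lost label faster than Larp7, with Larp7 minus Mepce at -1.06 ± 0.203 per h (exact permutation p = 0.00833, adjusted p = 0.0259). Hexim1 lost label faster than Cdk9, the kinase its protein inhibits, by 0.318 ± 0.0854 per h (exact permutation p = 0.0194, adjusted p = 0.0259). The difference between Ccnt1 and Ccnt2 did not pass (exact permutation p = 0.117, adjusted p = 0.117), although it passed on the raw T>C rate (0.037) and on the logit of the share (0.0417). Pairs were not tested with posterior weights or on labelled abundance.

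Without any single library each difference kept its direction, and several calls were lost. Ell against Ell2 missed the threshold without the 0, 90 or 150 min library (adjusted exact permutation p = 0.1, 0.1 and 0.0889), Larp7 against Mepce without the 0, 30, 90 or 150 min library (0.1, 0.05, 0.05 and 0.0889), and Hexim1 against Cdk9 without the same 4 libraries (0.111, 0.0778, 0.05 and 0.117). Without both the 30 and 60 min libraries the adjusted exact permutation p was 0.0833, 0.0833 and 0.222 in the same order. With 4 libraries the smallest possible exact permutation p is 0.0417, and that of Ccnt1 against Ccnt2 was 0.375. No adjusted p under 0.05 could then be reached over the 4 pairs, so the 3 calls could not have been kept in this setting.

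**Figure D3:**
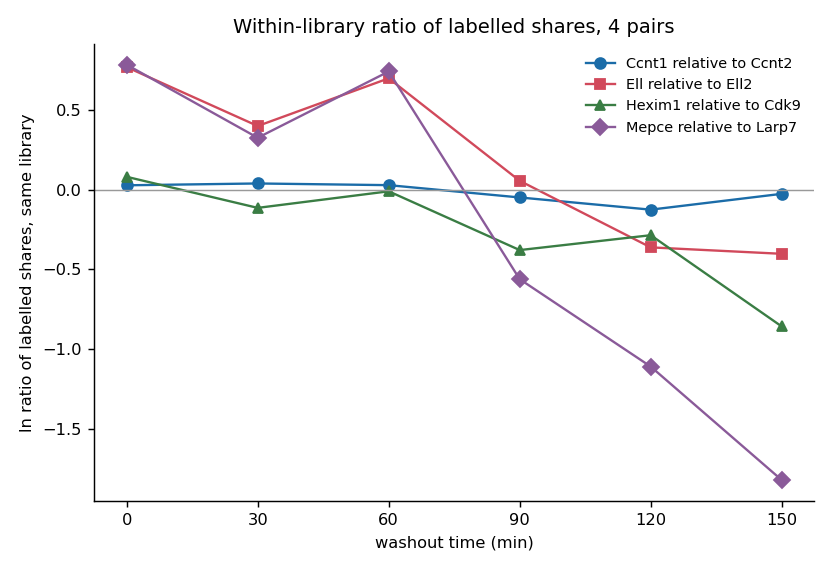
Natural log of the ratio of the labelled shares of 2 genes in the same library against washout time (min), 1 point per library, for the 4 pairs tested. The log ratio of Ccnt1 to Ccnt2 stays near 0, while that of Mepce to Larp7 changes sign between 60 and 90 min; the rates behind it differ by 1.06 per h.

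Label taken up before the washout ordered the genes in a similar way. After 4 h of labelling, the share at 0 min gives a half-life on the assumption of steady levels and complete labelling of new RNA. These values were 77.7 min for Ccnt1, 79.8 min for Mepce, 85.1 min for Ccnt2, 87.0 min for Hexim1, 99.3 min for Ell and 108 min for Cdk9. The remaining genes stood apart, with 230 min for Aff4, 326 min for Larp7 and 351 min for Ell2. Both estimates use the 0 min library. The 6 genes with the highest uptake were the 6 with the highest decay rates, and for each of them the uptake value was longer than the washout half-life.

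The raw T>C rate, conversions over covered T positions, fell for all 9 genes between 0 and 150 min, against a median ratio of 0.263 over the genes tested. Mepce went from 9.04% to 0.409% (92 conversions at 22500 covered positions at 150 min) and Hexim1 from 8.26% to 0.442%. Larp7 went from 4.30% to 1.57% and Ell2 from 3.62% to 1.60%, 2.74-fold and 2.27-fold lower, while their labelled share changed by much less. On this measure Larp7 and Ell2 did not pass either (limma adjusted p = 0.0888 and 0.0969). The same 7 genes fell, as did 7664 of all 11459 genes tested on it, more than on the labelled share. At 60 min the T>C rate of Cdk9 (9.04%), Hexim1 (8.67%), Ell (10.9%), Ell2 (4.19%) and Aff4 (5.77%) was above that at 0 min, as it was over all genes.

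At 60 min the labelled share was higher than at 30 min for 6 of the 9 genes, and over all genes tested for 47.1%. The 6 were Hexim1 (ratio 1.49), Mepce (1.42), Cdk9 (1.34), Ccnt2 (1.26), Ccnt1 (1.24) and Ell (1.17), and the 3 others were Larp7 (0.939), Aff4 (0.914) and Ell2 (0.864). Without both libraries the 6 fast genes still fell.

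Total reads of the 9 genes were compared because a share describes loss of label only where levels hold steady. None of the 9 genes passed edgeR, as for all 15743 genes (0% rose and 0% fell); 2 of them, Mepce and Aff4, had an unadjusted p under 0.05 with a positive slope, as did 11.5% of all genes. DESeq2 called 1 of the 9, Mepce, where it called 2.27% of genes as rising and 2.51% as falling. All 9 slopes were above 0 as point estimates, with a median of 0.11 log2 per h beside -0.004 over all genes. So were the slopes of 26 of the 43 other elongation genes tested for reads, and the share over all genes was not counted. The sign was not stable for 3 of the 9 genes: without the 0 min library the slopes of Cdk9, Hexim1 and Larp7 were -0.03, -0.07 and -0.03. That of Larp7 was also below 0 without the 30 min (-0.01) or 90 min (-0.01) library and without both the 30 and 60 min libraries (-0.01).

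**Figure D4:**
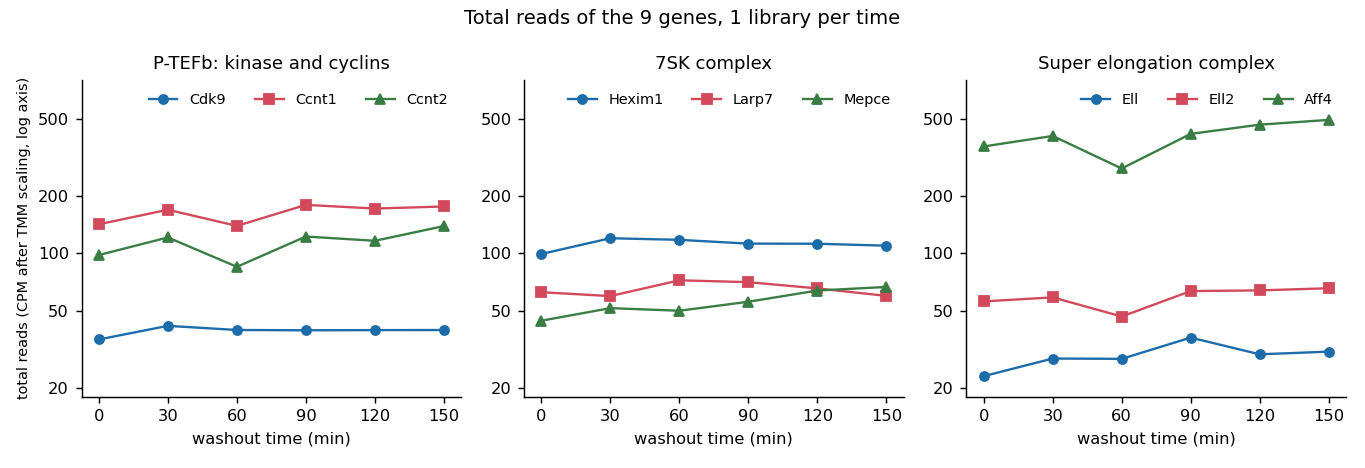
Total reads per gene as CPM, counts scaled to a common library size with TMM (log axis), against washout time (min), 1 library per time, grouped by complex. Mepce goes from 44.7 to 67.0 CPM, and Aff4, Ccnt1, Ccnt2 and Ell2 have their lowest point in the 60 min library.

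Mepce had 44.7, 52.0, 50.4, 56.1, 64.2 and 67.0 CPM (TMM-scaled counts) in time order. Only the 60 min value broke a steady rise, and it did so by less than 2 CPM. The slope was 0.23 ± 0.06 log2 per h (SE; edgeR adjusted p = 0.102, DESeq2 adjusted p = 0.0300). In edgeR it passed without the 60 min library (adjusted p = 0.0194) and without both the 30 and 60 min libraries (0.0469). This was the highest of the 9 slopes of total reads.

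Aff4 had 360, 408, 277, 419, 467 and 495 CPM, a slope of 0.19 ± 0.09 log2 per h (SE; edgeR adjusted p = 0.229). Hexim1 had 99.4, 120, 118, 113, 112 and 110 CPM, with its lowest value at 0 min (slope 0.02 ± 0.07; edgeR adjusted p = 0.895). Larp7 had 62.9, 60.1, 72.6, 71.0, 65.9 and 60.2 CPM, a slope of 0.00 ± 0.07 (edgeR adjusted p = 0.984). The slopes of Cdk9, Ccnt1, Ccnt2, Ell and Ell2 lay between 0.03 and 0.16 log2 per h, with edgeR adjusted p from 0.273 to 0.786.

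Levels between genes are compared per length. Aff4 had the highest median over libraries, 110 TPM (68.9 to 135), ahead of Hexim1 with 86.9 TPM (75.1 to 92.7) and Larp7 with 82.0 TPM (76.4 to 90.3), whose ranges overlap. Ccnt1 had 62.7 TPM (47.3 to 65.6), Mepce 46.6 TPM (37.8 to 59.3) and Ccnt2 42.4 TPM (28.1 to 50.3). Ell2 with 32.4 TPM (23.1 to 35.6), Cdk9 with 30.5 TPM (26.5 to 31.8) and Ell with 25.9 TPM (19.8 to 32.1) had the lowest medians. Their ranges overlapped each other and that of Ccnt2. The fast and the slow genes were found at high and at low levels alike.

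Other elongation genes were counted from a list of 44, of which 42 were tested. Of these, 23 fell, none rose and 19 did not pass, with a median rate of 0.262 per h, so that the share that fell was near that of all genes (52.3%). Among partners of P-TEFb and 7SK, 6 of 7 fell, from the bromodomain genes Brd2 (52.4 min) to Brd3 (138 min). Of 6 other super elongation complex genes 4 fell, between Mllt1 (70.6 min) and Mllt3 (163 min), which encode YEATS domain readers. All 3 genes of the little elongation complex, which serves small nuclear RNA genes, fell, namely Zc3h8 (74.9 min), Ice1 (79.5 min) and Ice2 (121 min).

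The pausing factors contrasted with these by count. Of 6 NELF and DSIF genes only Nelfa fell (112 min), and the group's median rate was 0.0893 per h. Of 6 genes of the PAF1 complex, an elongation platform on the polymerase, 4 fell, from Leo1 (97.1 min) to Paf1 (163 min). Of 6 other kinase and cyclin genes for the polymerase tail 3 fell, the shortest-lived Cdk12 (62.6 min) and the longest-lived Cdk13 (122 min). Of 8 elongation and chromatin transit factors 2 fell, Tcea2 (76.0 min) and Iws1 (120 min). Differences between these groups were not tested.

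Genes with the nearest profile were taken by the root mean square difference in the natural log of the labelled share over the 6 libraries, among 7539 genes averaging 500 reads or more. For Hexim1 these were Kti12 (0.0521), Tmem251 (0.0562) and Cdc25a (0.0563), with half-lives of 46.1, 45.2 and 44.3 min. For Cdk9 they were Leng8 (0.0301), the TFIID subunit gene Taf3 (0.0475) and the Integrator subunit gene Ints12 (0.0506), with 69.9, 65.9 and 68.1 min. For Ell2 they were the COPII coat gene Sec23b (0.0379), Flywch1 (0.0420) and Ltv1 (0.0458). Sec23b had a labelled share of 39.2, 48.3, 42.1, 47.9, 41.1 and 38.5% in time order, lowest in the first and last libraries as for Ell2. All these genes were chosen on the same 6 shares, so likeness in course and half-life follows from the choice.

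Gene structure and 3' UTR sequence were set beside the rates as a description. Hexim1 has 1 exon, as do 2.19% of the 11203 tested genes with a 3' UTR in a principal transcript of GENCODE M21, and spans 3.50 kb. Hexim1, Mepce (5.75 kb) and Cdk9 (7.29 kb) were the shortest loci and all fell. The longest were Ell (53.4 kb), Ell2 (65.6 kb) and Aff4 (71.0 kb), with rates of 0.526 per h and below. Larp7 (16.6 kb) was slow and Ccnt1 (32.2 kb) and Ccnt2 (33.9 kb) were fast, so the 9 genes did not follow span throughout.

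AU-rich elements in 3' UTRs are known as signals for rapid mRNA turnover, and their core was searched as TATTTAT in the DNA letters of the sense strand, overlaps allowed. It was found in 29.7% of the 11203 UTRs, and the median decay rate was 0.329 per h over the genes that hold it and 0.209 per h over those that do not. These medians take no account of UTR length, whose median was 1075 bases. Of the 9 genes, Aff4 held 6 copies in 6315 bases, Ccnt2 4 in 4502 bases, Ell2 2 in 1568 bases and Ccnt1 1 in 4522 bases, and no copy was found in the other 5 UTRs (240 to 1733 bases). Ccnt1 and Ccnt2 fell with half-lives of 47.6 and 50.3 min, Aff4 with 158 min, and Ell2 had no called decline; of those without it Mepce, Hexim1, Cdk9 and Ell fell and Larp7 had no called decline. The sites below, from the GENCODE M21 transcripts with the core in capitals, are shown as the copies that the counts refer to, 1 or 2 per gene, numbered from the first base after the stop codon.
Ccnt1 site at base 4479: ttctcaatctgTATTTATccatcccatca
Ccnt2 site at base 268: caagcttctctTATTTATgatttgaatat
Ccnt2 site at base 1197: cattgtacctgTATTTATagcttatggtc
Ell2 site at base 40: aaactaaagctTATTTATttaaaattcca
Ell2 site at base 1157: tgtaggtaaccTATTTATatactgctata
Aff4 site at base 287: aagtaaaattcTATTTATtttcatttttt
Aff4 site at base 3533: tatttccacatTATTTATtaaattgatct
A match to these letters is a description and does not show a protein bound there, and its part in the decay rates was not tested.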

How the data were processed

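The authors deposited 1 table with 1 library per washout time. Reads were aligned with STAR 2.5.2b to mm10, per the submitters' processing notes. The program that made the table, its annotation and its use of strand were not given in the sources used here. The authors' table holds, per the file headers, read counts, not normalized, counts of T>C conversions and covered T positions (printed with 4 significant digits), and the labelled fraction as a posterior mean with quantiles. Column names carry no unit: the 6 sample titles without their shared ending give the column names, and the time of each column rests on that reading. Libraries were stranded total RNA of 1 µg nuclear RNA, read as pairs of 81 nt. The number of reads sets the precision of a share, and posterior ranges cover 1 library only.

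Slopes on time left 4 residual degrees of freedom per gene, and limma and edgeR add to these by sharing variance over genes. Without the 30 min, the 60 min or both libraries, limma gave all 9 genes the same SE (0.126, 0.0920 and 0.116 per h). In those fits the p-value holds nothing of a gene's own scatter. Shares were fitted with limma 3.58.1 and reads with edgeR 4.0.16 (quasi-likelihood, TMM, filterByExpr), with DESeq2 1.42.0 as an alternative, all in R 4.3.3. The limma and edgeR fits were tried on simulated data with independent noise per gene and library. Those data hold no shift shared by the genes of a library, so they cannot show how calls fare under one. Alternatives changed the measure, scale, weights, read minimum, scaling and libraries. The 9 genes and all lists were chosen with earlier results of these data known. The rule for named genes took the 9 genes, in each context group the gene that fell fastest and the one that fell slowest (all members of a group of 3), and the 3 nearest profiles to Hexim1, Cdk9 and Ell2. Gene IDs were matched to GENCODE M21 (99.8%); 3' UTRs came from the best APPRIS principal transcript with the longest 3' UTR. 7SK RNA itself was not analysed here.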

Additional observations from a re-analysis of the deposited data

How the results depend on the processing

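The decay of the 9 genes was refitted under 13 alternatives. Of 117 values, 108 kept their side of the threshold and 9 lost it, 7 of them those of Aff4, and 4, all of Ell2, changed sign without being called. With posterior weights, 4 of the 9 genes fell (2950 of all genes). The rate of Mepce was then 0.449, of Hexim1 0.409, of Ccnt1 0.444, of Ccnt2 0.461, of Cdk9 0.318 and of Ell 0.321 per h. Cdk9 and Ell were no longer called (limma adjusted p = 0.0688 and 0.0616), and the cause was not tested. Leaving out 1 library gave 6 to 7 of the 9 genes falling, 3582 (without 150 min) to 6335 of all genes falling, and 56 to 230 rising, beside 136 in the fit of all 6 libraries. The number of genes that rose was 0 on the raw T>C rate, 56 on the logit and 33 on labelled abundance. For total reads, 87 of 90 values of the 9 genes kept their side, and the 3 others were Mepce passing. Without the low-count filter edgeR called 174 genes rising and 225 falling, without both the 30 and 60 min libraries 325 and 234 (1 of the 9 rising), and DESeq2 309 and 341 (1 of the 9 rising). Leaving out 1 library gave 0 to 778 rising, 0 to 635 falling, and 0 to 1 of the 9 rising, the highest each time without 60 min. The difference of Ccnt1 and Ccnt2 passed on the raw rate (0.0595 per h) and on the logit (0.124), and ranged from 0.0304 to 0.0786 with 1 library left out. With 1 library left out Ell minus Ell2 was 0.458 to 0.543, Hexim1 minus Cdk9 0.199 (without 150 min) to 0.370, and Larp7 minus Mepce -1.23 to -0.934 per h. On the raw T>C rate, with all 6 libraries, the 3 differences were 0.504, 0.191 and -0.920 per h in that order. Without both the 30 and 60 min libraries these differences were 0.496, 0.320 and -1.01 (adjusted exact permutation p = 0.0833, 0.222 and 0.0833). There 4 libraries allow an exact permutation p of 0.0417 at the least, and that of Ccnt1 against Ccnt2 was 0.375. No pair could then pass, so the 3 calls could not have been kept. Cultures could not be paired across washout times because every time is a single culture, while differences between genes were taken within a library. With 569 to 808 reads, Ell had the widest posterior ranges of the 9 genes within libraries.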
